A study of Mus musculus with 7 samples.

Results

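Alternative splicing of 4 genes of epithelial polarity and cell adhesion, Dlg1, Pkp4, Ptprk and Adgrl2, was examined in the epithelium of the mouse incisor cervical loop, where dental epithelial progenitors renew the tooth. The genes were chosen by name from a deposited splicing table, and chosen on the measured difference between the groups, because the authors' deposited table stops at a DRIMSeq corrected p of 0.0979. All rows of the 4 genes were taken, 6 of the 278 events of the table, and the 3 overlapping rows of Dlg1 were read as 1 switch, which leaves 4 switches. The 7 libraries came from mice of 8 to 10 weeks with the genotype K14CreER;Srsf1fl/fl, in which a tamoxifen-inducible Cre recombinase is driven by the keratin 14 promoter in epithelial cells and both copies of the splicing factor gene Srsf1 carry loxP sites. The 3 control libraries (1, 2 and 7) were not induced with TAM (tamoxifen), and the 4 mutant libraries (3, 4, 5 and 9) were induced with TAM. No group separates tamoxifen from the loss of Srsf1, and the labels do not tie the libraries to separate animals, so p-values measure only a spread between libraries that may be technical.

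Each value is a percent spliced in (PSI), the share, in percent, of the reads assigned to an event that carry its inclusion form. Read numbers per event are not given in the table, so the depth behind a PSI is unknown and no counting interval can be attached. The tissue was sequenced in bulk, so a small shift in all cells and a large shift in a part of them cannot be told apart. The table has no expression levels, and 0 of 13 dental epithelium, 0 of 9 dental mesenchyme and 0 of 7 blood and endothelium markers had a listed event, so the labelled tissue could not be checked by its markers. The Srsf1 event of the table, an alternative last exon that lies downstream of the last exons it is set against, had PSI values of 5.83%, 8.00% and 10.07% in controls 1, 2 and 7 and 65.60%, 44.74%, 85.52% and 55.83% in mutants 3, 4, 5 and 9.

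Epithelial cells keep an apical and a basal side and are bound to each other by junctions. DLG1 is a membrane-associated guanylate kinase that acts with Scribble and LGL at the lateral membrane, where its PDZ, SH3 and guanylate kinase-like domains gather other proteins. PKP4 (p0071) is an armadillo-repeat protein of the p120 catenin and plakophilin family found at cadherin junctions. PTPRK is a receptor-type tyrosine phosphatase with a homophilic extracellular part, and ADGRL2 (latrophilin 2) is an adhesion G protein-coupled receptor that binds teneurins and FLRT proteins on other cells. SRSF1 is an SR protein that binds purine-rich exon sequences, often containing GGA, and commonly favours inclusion of the exon it binds.

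In the mutant libraries Dlg1 used the longer of a pair of mutually exclusive exons more, Pkp4 and Adgrl2 included a cassette exon less, and Ptprk included one that was near 0 in the controls. All 6 events passed limma at an adjusted p of 0.05, where 95.7% of the table did; 4 were higher and 2 lower, against 16.9% and 78.8% of the table. Since the genes came from this same contrast, nothing is read from those counts. The PSI ranges of the groups did not overlap for 3 of the 6 events, those of Pkp4, Adgrl2 and Ptprk, against 95.7% of the table. All 3 Dlg1 events overlapped, and they make up 3 of the 12 overlapping events among the 278. By DRIMSeq, the corrected p that the authors' deposited table lists is below 0.05 for 4 of the 6 events, against 77.0% of the table: Pkp4 (0.000291), Adgrl2 (0.0173) and the Dlg1 events of the 97-nt and 100-nt exons (0.0330 each). The Dlg1 event of the 104-nt exon (0.0634) and the Ptprk event (0.0796) lie closer to the table's limit.

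**Figure D1:**
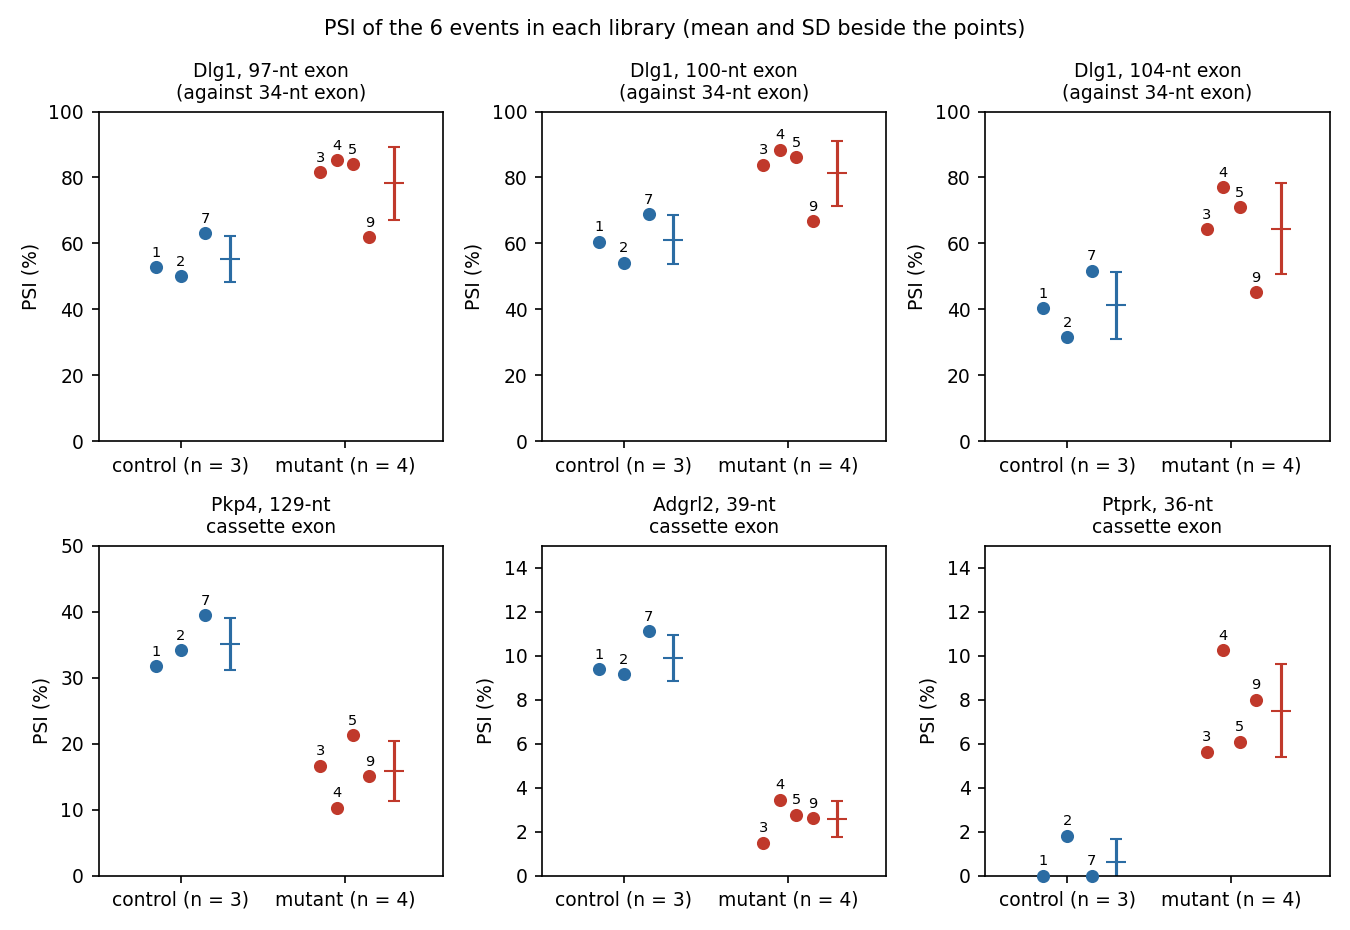
PSI in percent (vertical axis) of the 6 events in each control (blue, n = 3) and mutant (red, n = 4) library, labelled by library number, with the group mean and SD beside the points; the vertical scale differs between genes and the Ptprk control bar is cut at 0. Groups are apart for Pkp4, Adgrl2 and Ptprk, and mutant library 9 lies inside the control range in all 3 Dlg1 panels.

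Dlg1 (ENSMUSG00000022770.17, plus strand, chr16:31663443-31875129, GRCm38) showed the largest shifts of the 4 genes. Between the same upstream and downstream exons, each event sets a long exon against a 34-nt exon. The 34-nt exon lies 702 nt after the end of the 100-nt form, and PSI is the share of the long exon. The table lists the long exon in 3 versions, of 97 nt (chr16:31846837-31846933), 100 nt (chr16:31846834-31846933) and 104 nt (chr16:31846834-31846937), each set against the same 34-nt exon (chr16:31847636-31847669). Both exons are coding in GENCODE M21. The 100-nt exon is exon 19 of 26 in transcript Dlg1-202, where it covers codons 670 to 703 of 927, and the 34-nt exon covers codons 670 to 681 of 905 in another coding transcript. Of 7 protein-coding transcripts of Dlg1, 5 carry the 34-nt exon and 1 the 100-nt exon. DLG1 is known for alternatively spliced inserts between its SH3 and guanylate kinase-like domains, one of which binds proteins of the 4.1 family; which insert these exons encode was not tested.

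The sequences of both exons, read from the M21 transcripts, are shown because the choice between them is the event. Capitals mark GGA.
Dlg1 100-nt exon: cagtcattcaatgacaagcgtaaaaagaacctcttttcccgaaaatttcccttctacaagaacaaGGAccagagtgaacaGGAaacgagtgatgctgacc
Dlg1 34-nt exon: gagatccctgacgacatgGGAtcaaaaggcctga

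The 3 versions of the long exon differ only at their ends. In the next sequence, capitals mark the 3 bases at the start that the 97-nt version lacks and the 4 bases at the end that only the 104-nt version has.
Dlg1 104-nt exon: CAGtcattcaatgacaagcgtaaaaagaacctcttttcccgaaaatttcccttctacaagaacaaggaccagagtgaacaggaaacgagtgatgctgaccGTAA

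The start is thus a pair of 3′ splice sites 3 bases apart, the first exon bases CAG themselves ending in the AG that closes an intron, and the added 4 bases begin with GT, the usual start of an intron. Of the 15 distinct junctions of the 6 events, 14 are introns of M21. The exception is the junction from the end of the 104-nt exon, and the authors' deposited table likewise classes that event as not using known junctions only. The 40 intron bases before the 34-nt exon, taken from a retained-intron transcript of M21 (chr16:31847596-31847635), are 67.5% pyrimidine. Capitals mark the last 2 bases of the intron.
Dlg1 intron before the 34-nt exon: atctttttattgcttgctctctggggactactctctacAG

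**Figure D2:**
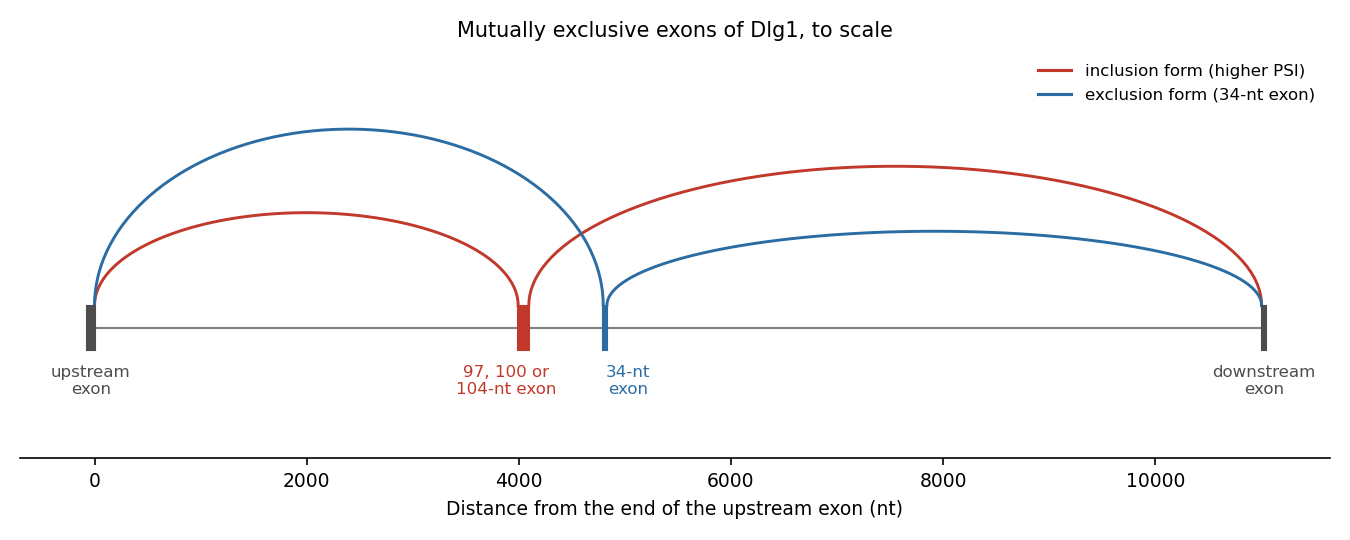
Map of the Dlg1 exons drawn to scale along the distance in nt from the end of the upstream exon (horizontal axis), with inclusion junctions in red and exclusion junctions in blue. The long exon follows an intron of 3994 nt (100-nt version), and the 34-nt exon lies 702 nt further on.

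Reading frame sets the versions apart. Lengths of 34, 97 and 100 nt all leave a remainder of 1 after division by 3, and 104 nt leaves 2. Placed in the Dlg1-202 transcript, the 100-nt, 97-nt and 34-nt forms read through to stop codons after 927, 926 and 905 codons. The 104-nt form meets a stop at codon 709, which is 554 bases before the last exon junction. Leaving out both exons gives a stop at codon 672, and keeping both the 100-nt and the 34-nt exon gives one at codon 706. The table lists no Dlg1 event for skipping or for inclusion of both. M21 does hold a transcript with both the 97-nt and the 34-nt exon, Dlg1-207, annotated as nonsense-mediated decay.

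PSI of the 97-nt version was 52.78%, 50% and 63.16% in controls 1, 2 and 7 and 81.58%, 85.19%, 84.00% and 61.96% in mutants 3, 4, 5 and 9. For the 100-nt version it was 60.47%, 54.12% and 68.89% in those controls and 83.85%, 88.41%, 86.09% and 66.67% in those mutants. Mutants 3, 4 and 5 lay above every control in both versions, while mutant 9 lay below control 7. The 104-nt version had lower PSI values, 40.35%, 31.58% and 51.72% in the controls and 64.41%, 77.14%, 70.91% and 45.31% in the mutants, with the same 3 libraries above the controls and the same one inside their range. The 104-nt row shares the junction before the exon with the 100-nt row. Its PSI can therefore hold reads of the 100-nt form and is not the share of the 104-nt form.

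Differences of medians (mutant minus control) were 30.01 points for the 97-nt, 24.50 points for the 100-nt and 27.31 points for the 104-nt version. The corresponding differences of means were 22.9 points (SE 5.97), 20.1 points (SE 5.66) and 23.2 points (SE 7.68) by limma. By the absolute difference of medians the 97-nt version ranked 12th and the 100-nt version 33rd among the 278 events. Without control 2 the 104-nt version no longer passed (limma adjusted p = 0.0737), with a difference of means of 18.4 points. Expressed as the ratio of PSI to its complement, long-exon use over 34-nt exon use was 1.53, 1.18 and 2.21 in controls 1, 2 and 7 for the 100-nt version. It was 5.19, 7.63, 6.19 and 2.00 in mutants 3, 4, 5 and 9, so the median ratio was 3.72 times that of the controls.

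The order of the versions was the same in all 7 libraries, with PSI highest for the 100-nt, then the 97-nt, then the 104-nt version. The 100-nt PSI exceeded the 97-nt PSI by a median of 5.73 points in control and 2.75 points in mutant libraries, and exceeded the 104-nt PSI by 20.12 and 17.31 points. Such differences are not a measure of relative splice-site use, and the level or rise of a single row is not that of its version alone. The 3 rows share the exclusion junctions, the 97-nt and 100-nt rows share the junction after the exon, and the 100-nt and 104-nt rows share the junction before it. The 3 rows are therefore 1 switch and not repeated evidence for it.

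Pkp4 (ENSMUSG00000026991.20, plus strand, chr2:59160850-59355208) had a 129-nt coding cassette exon (chr2:59350494-59350622) that was included less in the mutants. It is exon 20 of 22 in transcript Pkp4-202, covering codons 1042 to 1085 of 1190, close to the end of the protein. Its length equals 43 codons, so skipping leaves the frame in place and moves the stop from codon 1191 to codon 1148. M21 has both forms among 5 coding transcripts, 2 with the exon and 2 with the junction that skips it. Capitals mark the 3 GGA of the exon.
Pkp4 exon: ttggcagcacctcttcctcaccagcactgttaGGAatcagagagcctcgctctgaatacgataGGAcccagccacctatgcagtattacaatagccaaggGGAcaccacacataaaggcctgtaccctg

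The exon's PSI was 31.71%, 34.16% and 39.46% in controls 1, 2 and 7, and 16.67%, 10.32%, 21.28% and 15.03% in mutants 3, 4, 5 and 9. The highest mutant, library 5, lay about 10 points below the lowest control, and no library of one group entered the range of the other. The difference of means was −19.3 points (SE 3.05), from 35.1% ± 3.96 (SD, n = 3) to 15.8% ± 4.52 (SD, n = 4), and mean inclusion was 2.22 times higher in the controls. The spread within either group was small beside that difference. In absolute difference of medians (−18.31 points) the event ranked 81st of 278, above the table's median of 13.6 points.

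Outside the 4 genes, the events whose 7 values ran most like those of the Pkp4 exon were a cassette exon of Lsm5 (Pearson r = 0.988), a coordinate cassette of Map4k4 (r = 0.985) and a first exon of Etv1 (r = 0.984), each over 7 libraries. The libraries fall into 2 groups that differ in all 4 events, so these coefficients mostly restate the difference between groups.

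Adgrl2 (ENSMUSG00000028184.12, minus strand, chr3:148815583-148990555) had a 39-nt coding cassette exon (chr3:148849766-148849804) with low inclusion in the controls and lower inclusion in the mutants. It covers codons 599 to 611 in all 6 coding transcripts that contain it, out of 1487 codons in Adgrl2-208, where it is exon 9 of 24. Its 13 codons begin and end in frame, so the exon adds or removes whole codons. Of the 16 coding transcripts in M21, 4 have the junction that skips it. The exon holds 0 GGA.
Adgrl2 exon: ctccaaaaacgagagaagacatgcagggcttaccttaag

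Inclusion was 9.40%, 9.17% and 11.11% in controls 1, 2 and 7, and 1.5%, 3.45%, 2.78% and 2.61% in mutants 3, 4, 5 and 9. Every mutant lay below every control, and both groups were tight. The difference of means was −7.31 points (SE 1.67), from 9.89% ± 1.06 (SD, n = 3) to 2.59% ± 0.809 (SD, n = 4). In points the event ranked 245th of 278, and mean inclusion was 3.83 times higher in the controls. That ratio rests on mutant values from 1.5% to 3.45% at unknown depth, so it was not compared with that of Pkp4.

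Ptprk (ENSMUSG00000019889.10, plus strand, chr10:28074820-28597397) had a 36-nt coding cassette exon (chr10:28562107-28562142) that moved the other way. The exon is number 16 of 32 in transcript Ptprk-201 and covers codons 831 to 843 of 1457. Its length equals 12 codons, and skipping moves the stop from codon 1458 to codon 1446. Of 5 coding transcripts, 3 include the exon and 1 has the skipping junction. It holds 0 GGA as well.
Ptprk exon: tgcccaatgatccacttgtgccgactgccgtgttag

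The Ptprk exon was listed at 0% in controls 1 and 7 and at 1.82% in control 2. Mutants 3, 4, 5 and 9 had 5.63%, 10.26%, 6.10% and 8.00%. All 4 mutants lay above all 3 controls, with library 4 highest. Means were 0.607% ± 1.05 (SD, n = 3) and 7.50% ± 2.11 (SD, n = 4), a difference of 6.89 points (SE 1.90), and since 2 controls are listed at 0 and depth is unknown, no fold is given. The Ptprk exon had the lowest control median of all 173 cassette events, and 6 of the 173 had a control median below 10%. Among those 6, Ptprk, Mmadhc, Npepps and Phf14 were higher in the mutants, and Adgrl2 and Add1 were lower.

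**Figure D3:**
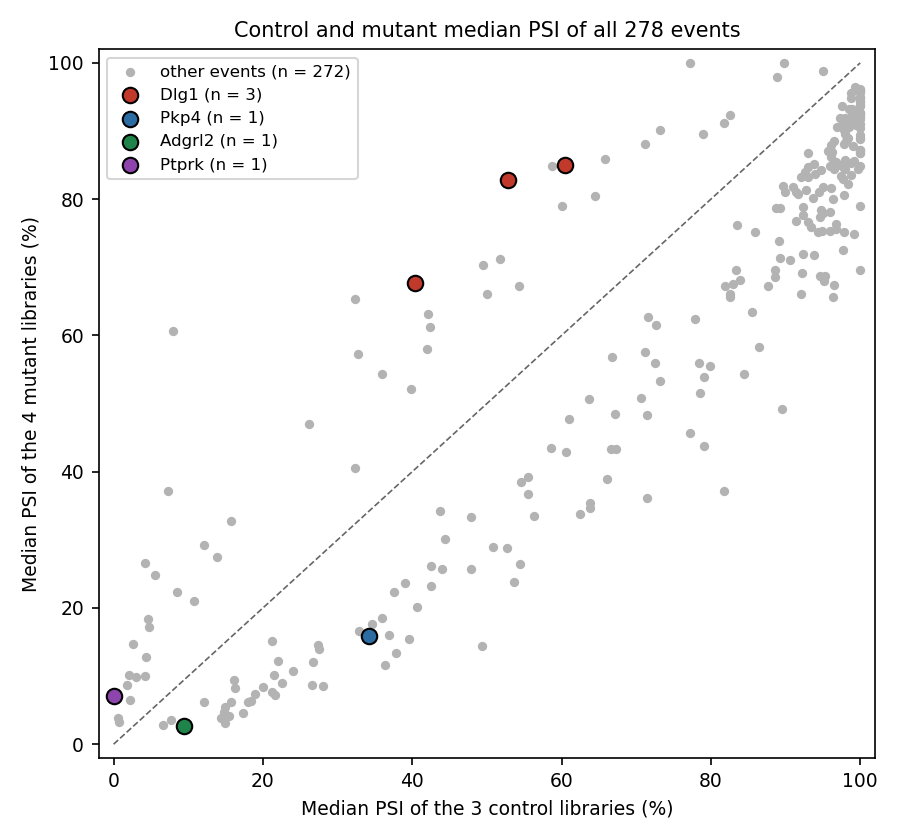
Median PSI of the 4 mutant libraries (vertical axis, percent) against that of the 3 control libraries (horizontal axis, percent) for all 278 events, with equality dashed. The Dlg1 events lie above the line in mid-range, Pkp4 below it, and Adgrl2 and Ptprk near the origin on opposite sides.

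The mutant libraries did not take the same order in each gene. Shifts from the control median, counted in the direction of each event, were largest in mutant 4 for the 3 Dlg1 events, Pkp4 and Ptprk, and smallest in mutant 4 for Adgrl2. Over all 278 events the median shift was 12 points in mutant 3, 16.6 in mutant 4, 13.7 in mutant 5 and 10.3 in mutant 9. Mutant 9 shifted least in 136 events and mutant 4 shifted most in 159. Dlg1 followed this order of libraries with a wide gap: the 97-nt version shifted by 28.80, 32.41 and 31.22 points in mutants 3, 4 and 5 and by 9.18 points in mutant 9. In that same library Pkp4 shifted by 19.13 points, its second largest value, and Ptprk by 8.00 points, also its second largest, so mutant 9 was near the controls for Dlg1 without being so for those genes. The Srsf1 event had another order, largest in mutant 5 (77.52 points) and smallest in mutant 4 (36.74 points). What sets the order of libraries was not tested.

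**Figure D4:**
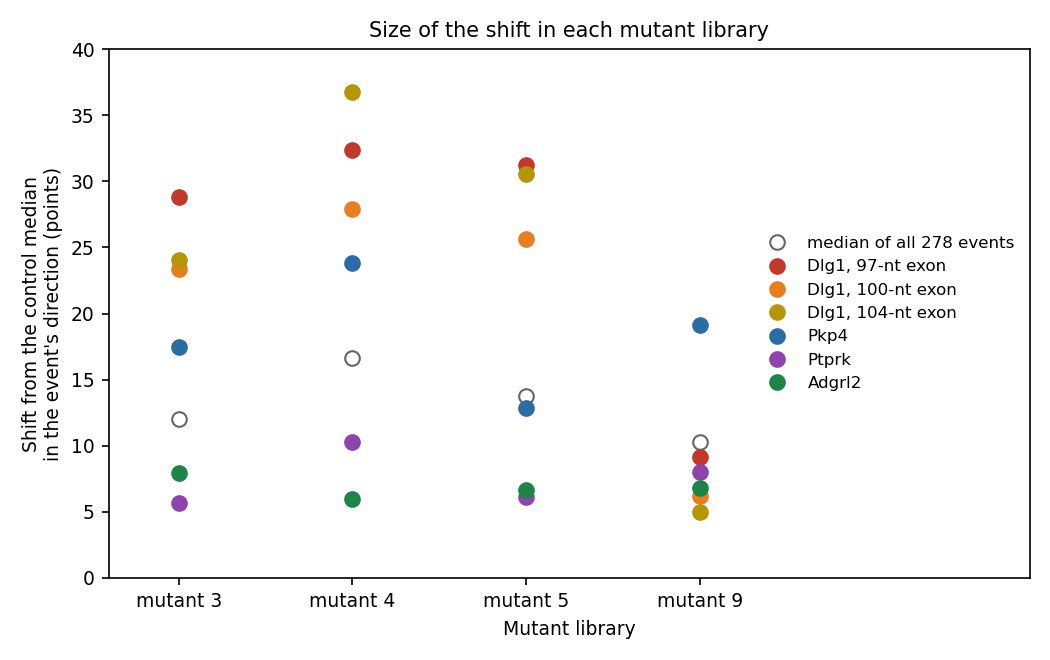
Shift in PSI from the control median, in percentage points and counted in the direction of each event (vertical axis), for each mutant library (horizontal axis); open circles are the median over all 278 events. The 3 Dlg1 points drop from above 23 points in libraries 3, 4 and 5 to under 10 in library 9, where Pkp4 stands at 19.13.

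The cassette exons of Pkp4, Adgrl2 and Ptprk kept the reading frame. Their lengths of 129, 39 and 36 nt are multiples of 3, as are 59.0% of the 173 cassette exons of the table, and the 34-nt and 100-nt Dlg1 exons replace each other in frame. The Adgrl2 and Ptprk exons are among 10 cassette exons under 40 nt, against a median length of 116 nt. GGA, searched on the transcript strand with overlaps allowed, occurred 3 times in the Pkp4 exon (2.33 per 100 nt), 2 times in the 100-nt Dlg1 exon (2.00 per 100 nt) and 1 time in the 34-nt Dlg1 exon (2.94 per 100 nt). All were below the cassette median of 3.17 per 100 nt. The longer motifs GAAGAA and GGAGA, which overlaps GGA, were in none of these exons, and 9.83% and 24.9% of the cassette exons hold them. GGA occurs in 92.5% of the cassette exons, and its reverse complement TCC in 74.0%.

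Adgrl2 and Ptprk belong to the 13 of 173 cassette exons without GGA. Among those 13, 12 were higher in the mutants, Ptprk included, and the Adgrl2 exon was the only lower one, while 147 of all 173 were lower. That set was chosen after its values were seen and includes overlapping exons of Arfip1, so nothing is read from its split. Length differs too, since 4 of the 10 exons under 40 nt lack GGA. A match or its absence says nothing about whether SRSF1 binds there.

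**Figure D5:**
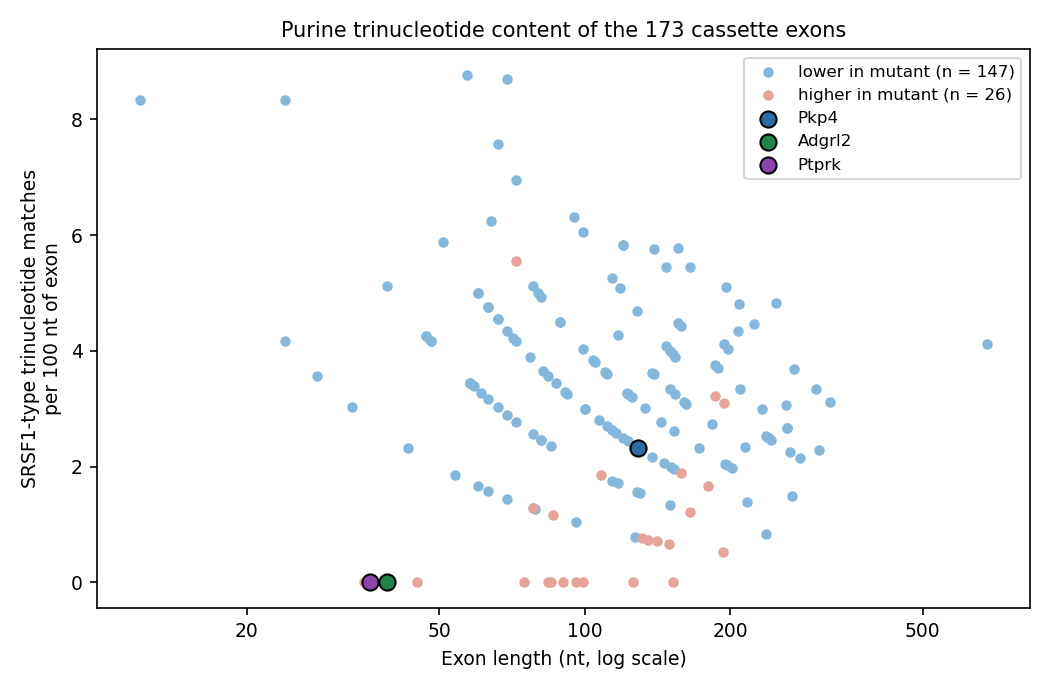
Matches of GGA per 100 nt (vertical axis) against exon length in nt on a log scale (horizontal axis) for the 173 cassette exons, coloured by direction in the mutants. Adgrl2 and Ptprk lie at 0 with lengths of 39 and 36 nt, and Pkp4 at 2.33 with 129 nt.

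Of 187 genes in 6 lists of polarity, junction and adhesion genes, 6 had a row in the table, with 4 events higher and 4 lower. All 8 passed limma, where 95.7% of the table did (16.9% higher and 78.8% lower), so nothing is read from that count. Besides the 4 genes these were Nectin2, an immunoglobulin-type adhesion molecule of adherens junctions listed under its older name Pvrl2, and Dsc3, a desmosomal cadherin. A last exon of Nectin2 had a PSI of 62.96%, 68.57% and 66.67% in controls 1, 2 and 7 and 41.94%, 37.29%, 44.57% and 50% in mutants 3, 4, 5 and 9 (difference of means −22.6 points, SE 3.14). A 43-nt cassette exon of Dsc3 was at 23.29%, 21.17% and 20.51% in the controls and 14.92%, 16.06%, 15.51% and 11.26% in the mutants (difference of means −7.22 points, SE 1.96). Both had separate groups, as had 95.7% of the table. Pkp4, Nectin2 and Dsc3 were 3 of the 36 genes of the armadillo and cadherin junction list, each with 1 event, lower in the mutants. Dlg1 was the single gene of 42 in the polarity list, Ptprk the single one of 19 receptor phosphatases, and Adgrl2 the single one of 32 adhesion receptors and partners. None of the 26 tight junction genes or the 32 integrin and hemidesmosome genes had a row, and a gene without a row cannot be called unchanged.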

How the data were processed

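Total RNA was sequenced after Illumina TruSeq library preparation, per the labels' protocols; Bowtie, TopHat, SAMtools and DESeq are named without versions, and mm9 as build, per the submitters' processing notes. The authors deposited PSI as a percent per library for 278 events quantified with JuncBASE, per the series text, with group medians as a percent and their difference, a signed score in percentage points. JuncBASE and DRIMSeq p-values are the authors' own, per the file headers. Of 863 distinct junctions, 650 (75.3%) are introns of GENCODE M21 and 0 are after a shift of 1000 bases, so coordinates were read as GRCm38; exon sequences and frames came from M21 transcripts. All 7 library columns were assigned by title, and 0 were left unused.

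limma 3.58.1 (R 4.3.3) was fitted on PSI over all 278 events, mutant against control, with Benjamini-Hochberg adjustment at 0.05. On simulated PSI for 278 events it recovered 72.3% of changes of 10 points and 95.3% of 20 points. Most simulated events were changed, the values were normal and not bounded to the PSI scale, and no smaller change was simulated. These rates therefore do not cover the smaller shifts of Adgrl2 and Ptprk. Alternatives were logit and arcsine scales, robust moderation, library weights, a filter on mean PSI, the authors' DRIMSeq p-values, and leaving out each library. Summaries used Python 3.11.15 with pandas 2.3.3. Depth per event is unknown. The members, the gene lists and the tests were chosen with earlier results of these data known. All rows of the 4 genes are named, and of the lists up to 6 genes with the largest difference; older symbols were matched through RefSeq.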

Additional observations from a re-analysis of the deposited data

Results flagged for a closer look

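In the Dlg1 event of the 97-nt exon, mutant library 9 had a PSI of 61.96%, far from the other 3 mutants: its gap to the nearest of them was 0.845 of the group's whole range, above Dixon's 95% critical value for 4 values. Among the 6 events this was the single one past that limit, and chance alone would pass about 1 in 20 groups. The same library was also lowest in the 100-nt and 104-nt rows, which share junctions with it, with gaps of 0.790 and 0.600 of the range. Leaving out library 9 moved the difference of medians of the 97-nt version from 30.01 to 31.22 points. A median reacts little to 1 extreme value, so this does not show how much library 9 weighs in the difference of means. Library 9 was not set apart for Pkp4, Adgrl2 or Ptprk, and the cause was not tested.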

How the results depend on the processing

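Differences of medians of the 6 events kept their direction and moved by less than the spread between libraries in all 60 alternatives (means in place of medians, logit and arcsine scales, and each library left out). With 1 library left out, they lay from 24.8 to 31.4 points for the 97-nt, from 20.3 to 27.7 for the 100-nt and from 21.6 to 31.7 for the 104-nt version of the Dlg1 exon, from −21.0 to −17.1 for Pkp4, from −7.56 to −6.59 for Adgrl2 and from 6.10 to 8.00 for Ptprk. The limma call of the 104-nt Dlg1 version was lost without control 2 (adjusted p = 0.0737), the other 5 events passed under each limma fit that tested them, and Ptprk was removed by the filter on mean PSI from 5 to 95%. Over the table, 239 to 278 events passed limma under the alternatives, against 266, and 214 passed the authors' DRIMSeq test at 0.05. The share of cassette exons with no more GGA per 100 nt than an exon of the 4 genes was lower for all 7 exons when only the 147 lower exons were the reference in place of all 173: from 7.51% to 0.680% for Adgrl2 and for Ptprk, from 24.9% to 13.6%, 26.6% to 15.6%, 23.1% to 11.6% and 43.4% to 35.4% for the 100-nt, 97-nt, 104-nt and 34-nt exons of Dlg1, and from 30.6% to 20.4% for Pkp4. The narrower reference drops 12 of the 13 exons without GGA, so lower shares follow from the choice of reference. In it, the 0.680% is the Adgrl2 exon itself, and the Ptprk exon is not a member. With current symbols only, a match tried after seeing the data, 5 listed genes had a row. No paired analysis was possible because the groups share no replicate number. Depth per event is unknown, so the counting error of a PSI cannot be given for any event.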

Other observations

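The 13 cassette exons without GGA, a set chosen after its values were seen, ran from 35 to 152 nt with a median of 84. By difference of medians, the largest rises in the mutants were those of Ktn1 (26.1 points), the overlapping exons of Arfip1 (21.1 and 20.8 points), Lsm6 (18.9 points) and Ezh2 (16.1 points). The smallest rise was that of Ptprk (7.05 points), and the Adgrl2 exon (−6.71 points) was lower. The reverse complement TCC is absent from 45 exons, and of these 39 were lower and 6 higher, where 147 and 26 were so over all 173 exons. Since the set without GGA was chosen on these values, the exons without TCC are no control for it. The splits were not compared by a test, nothing is read from them, and a role of GGA was not tested.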
